A study of Mus musculus with 6 samples.

Results

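The genes described here are the nuclear-encoded subunits of oxidative phosphorylation, the machinery in the inner mitochondrial membrane that turns the oxidation of NADH and succinate into ATP. Members were chosen by gene name and by summed counts: the name had to be one of the mouse symbols for a subunit of complexes I to V, and at least 50 reads had to be counted over the 6 libraries. Of the 34745 genes in the deposited table, 77 were members, with 36 in complex I, 4 in complex II, 8 in complex III, 13 in complex IV and 16 in complex V. A further 7 symbols matched by name and lay under the limit, and 4 symbols of pseudogenes were left out. The counts that chose the members were summed over both genotypes.

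Bulk RNA-seq was carried out on HSCs sorted as LSK CD150+CD34-CD48- cells (marrow cells without lineage markers that carry Sca1, cKit and CD150 and lack CD34 and CD48) from C57BL/6 mice. The 3 WT samples came from mice that carried floxed Med23 alleles without Cre, and the 3 Med23-deficient (KO) samples from mice with the same floxed alleles and Mx1-cre, a Cre gene under an interferon-responsive promoter that is switched on by poly(I:C). Mx1-cre is also active in cells outside the blood lineage, and any Cre effect cannot be told apart from that of Med23 loss, because the WT mice lacked Cre. The labels do not say whether the numbered samples came from separate mice, so p-values measure the spread between these samples only.

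Electrons from NADH enter the chain at complex I, and those from succinate at complex II, which is also an enzyme of the TCA cycle. Both pass them through ubiquinone to complex III, and cytochrome c carries them to complex IV, which reduces oxygen. Complexes I, III and IV pump protons, and complex V, the ATP synthase, lets them back through its membrane ring of c subunits to drive ATP synthesis. Quiescent HSCs are known to rely largely on glycolysis and to keep respiration low. Most subunits are encoded in the nucleus and 13 in mitochondrial DNA, so that each complex except II needs both genomes.

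Column totals were between 3537269 and 8131344 counts, at which 3 counts, the smallest signal treated as detected, equal 0.369 to 0.848 CPM (read counts scaled to a common library size). All 10 markers of HSCs fixed for the check were above 3 counts in every library, with summed levels between 2090 and 2760 CPM. Of these 10 markers, 4 were lower in every KO sample and 1, Mecom, was higher in every KO sample. Several library differences did not follow the genotype. The genes Gm26917 and Gm42418 took 6.11 to 18.1% of the counts, and the sum over Y-linked genes was 1 read in WT replicate 3, 0 in KO replicate 3 and at least 1036 elsewhere. The summed markers of 3 other cell types did not overlap between genotypes. Of 20 skeletal muscle markers, 17 were lower in every KO sample, and their sum was 182 to 408 CPM in WT and 10.9 to 26.5 CPM in KO, with Myh4 and Pvalb at most at 3 counts throughout. The 14 granulocyte and monocyte markers summed to 506 to 651 CPM in WT and 829 to 1090 CPM in KO, where Itgam and Prtn3 were higher in every sample and the defining markers Cd14, Ltf and Ly6g were at most at 3 counts in every library. The 7 megakaryocyte markers summed to 165 to 264 CPM in WT and 324 to 409 CPM in KO, with 3 of them higher in every KO sample (Gp9, Itgb3 and Ppbp). The sums of erythroid, B cell and T and NK cell markers overlapped. Med23 itself, which tests the labels, was at 47.6, 70.8 and 24.1 normalized CPM in WT and 31.6, 29.8 and 36.8 in KO. Replicate 3 of WT, by its label, had less Med23 than any KO sample, and the KO-minus-WT difference of -0.54 ± 0.41 (log2, SE) had an adjusted p of 0.99 in edgeR's quasi-likelihood test. Reads from exons that the deletion leaves in place would still be counted as Med23. The part of such reads in these values was not tested.

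The genomic stretches just before the transcription start are shown for 3 members that carry the results below. They are Ndufc2, a member that was below WT in every KO library, Atp5g3, the c subunit gene with the highest FPKM, and Cox8a, the member with the highest level per length. Each is the 150 bases upstream of the RefSeq start on build GRCm38.p6, written 5′ to 3′ on the strand of the gene. Ndufc2 is on the plus strand at chr7:97399853-97400002, Atp5g3 on the minus strand at chr2:73911327-73911476, and Cox8a on the minus strand at chr19:7217617-7217766. Capitals mark an element read by estrogen-related receptors, on the reverse strand.
Ndufc2: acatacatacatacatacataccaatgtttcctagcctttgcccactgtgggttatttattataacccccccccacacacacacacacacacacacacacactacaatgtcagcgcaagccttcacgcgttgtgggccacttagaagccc
Atp5g3: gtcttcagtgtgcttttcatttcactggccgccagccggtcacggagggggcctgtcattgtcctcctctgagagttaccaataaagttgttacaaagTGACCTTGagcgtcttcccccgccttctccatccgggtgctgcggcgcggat
Cox8a: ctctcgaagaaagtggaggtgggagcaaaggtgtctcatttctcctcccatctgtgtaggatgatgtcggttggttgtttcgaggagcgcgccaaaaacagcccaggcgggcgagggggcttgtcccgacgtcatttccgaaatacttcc

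The window searched for motifs ran from 250 bases before the start to 50 after it, and was found for 65 members. Factors known for driving respiratory genes were represented by short motifs, read on both strands, with overlapping matches of different motifs each counted. The NRF1 motif GCGCATGCG was in the windows of 7 members, 10.8%, compared with 1.95% of all 27025 genes with a window and 4.26% of the 9543 among them that were tested for expression. The YY1 motif AAGATGGCG was in 8 members, 12.3%, compared with 1.64% of all genes and 3.77% of those tested. The GABPA motif CCGGAAG was in 15 members, 23.1%, compared with 9.93% of all genes and 21% of those tested. The motif of estrogen-related receptors, CAAGGTCA, was in 3 members, 4.62%, compared with 1.76% of all genes and 1.24% of those tested. The median difference between KO and WT, in members with and without the motif, was -0.30 and -0.22 (log2) for NRF1, -0.30 and -0.21 for GABPA, -0.18 and -0.25 for YY1, and -0.31 and -0.22 for estrogen-related receptors. A match to these letters does not show binding, and the Ndufc2 window held none of the 4 motifs.

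All 77 members passed the filter on low counts, and they covered a wide range of levels in HSCs. The median member was at 30.8 FPKM (counts divided by gene length and library size, the only scale used here to compare genes), 10 members were above 100 FPKM, and 11 were below 10 FPKM. The highest was Cox8a, a small subunit of complex IV, at 254 FPKM, followed by Ndufb9 of complex I at 199 FPKM and Cox6b1, which links the monomers of complex IV, at 186 FPKM. Within complex I the levels ran from 1.93 FPKM for Ndufb4 to those of Ndufb9, a 103-fold range, although the assembled complex holds these subunits in equal numbers. The low end is uncertain, as Ndufb4 had 85 reads and a pseudogene transcript at least 98% identical to 40.2% of its transcript exists. The corresponding range was 111-fold in complex V, 53.2-fold in complex IV, 5.18-fold in complex III and 3.62-fold in complex II. The length behind these values is 1 number per gene and can be far from that of the transcript: for Atp5g1 it was 9797 bases, and the longest coding transcript in GENCODE has 4715. In raw reads, Atp5a1 and Atp5b, the alpha and beta subunits that form the catalytic head of ATP synthase, together took 18.8% of the 264390 counts of the members.

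**Figure D1:**
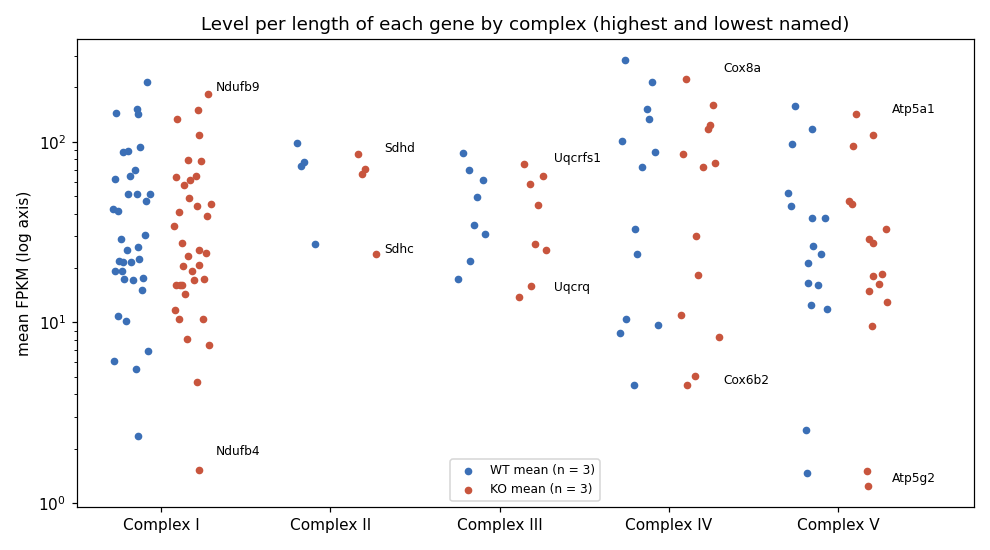
Mean FPKM (log axis) of each member in WT (blue) and KO (red), 3 samples each, by complex, with the highest and lowest member of each complex named. Cox8a at 254 FPKM is the highest and Atp5g2 at 1.36 FPKM the lowest, and the WT and KO points of each complex overlap in range.

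At the limit of 50 counts, the lowest members inside were Ndufb4 with 85 counts and Atp5g2 with 94, and the highest outside was Atp5l, the g subunit of ATP synthase, with 30. Ndufb4, an accessory subunit of complex I, had 15, 22 and 15 reads in WT and 13, 11 and 9 in KO, and after scaling its KO levels were below those of WT with an estimate of -0.68 ± 0.98. The pseudogenes Atp5l2-ps and Atp5l-ps1 held 79 and 67 counts, more than Atp5l itself. The other genes below the limit were alternative isoforms. Cox6a2 and Cox7a1, the forms of heart and skeletal muscle, had 4 and 12 counts in all, and Cox8b, also a muscle form, had 0. These muscle isoforms were thus near or under the smallest detectable signal in WT samples too, where other muscle markers were counted. Ndufa4l2, known from hypoxia, and the testis forms Cox7b2 and Cox8c were also at 0. The cells therefore had reads for the general isoforms Cox6a1, Cox7a2, Cox7b and Cox8a and next to none for these alternatives.

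No member passed an adjusted p of 0.05 between KO and WT in edgeR's quasi-likelihood test with Benjamini-Hochberg adjustment over 12513 genes, or in DESeq2. The smallest adjusted p of a member in edgeR was 0.86. Over all genes tested, 0.0719% passed in edgeR and 0.971% in DESeq2. At an unadjusted p under 0.05, 1 member was lower in KO and 0 were higher in edgeR, compared with 2.77% and 2.94% of all genes. In DESeq2, 2 of the 77 members were under that p, both lower, compared with 910 of the 12513 genes in either direction. The direction of the estimates was nevertheless uneven. In KO, 70 of 77 members (90.9%) had a lower estimate, compared with 50.5% of all genes, and the median difference was -0.24 (log2) for the members and -0.0054 for all genes. The medians were -0.21 for complex I, -0.21 for II, -0.32 for III, -0.26 for IV and -0.22 for V. For 68 of the 77 members the estimate was within 0.5 of 0 on the log2 scale, compared with 8694 of the 12513 genes. The median standard error was 0.3 for the members and 0.42 for all genes. A bulk sample cannot separate fewer cells of a type from less RNA per cell.

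The 3 KO libraries lay below all 3 WT libraries for 9 members (11.7%), compared with 6.14% of all genes, and above them for 1 member (1.30%), compared with 6.25%. For the other 67 members the groups overlapped. In 71 members the range among the WT samples was wider than the difference between the group means. The share of all genes for which this holds was not counted, so that number has no background beside it. Summed over the members, 0.951, 0.817 and 0.905% of the counts fell on them in WT and 0.739, 0.829 and 0.816% in KO. On these column totals the groups overlapped, with KO replicate 2 above WT replicate 2, and WT replicate 1 was the highest. On the library sizes behind normalized CPM, WT replicate 3 was the highest at 0.99%. There KO replicate 2, at 0.796%, was below WT replicate 2, at 0.816%, and the groups overlapped through KO replicate 3, at 0.847%.

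**Figure D2:**
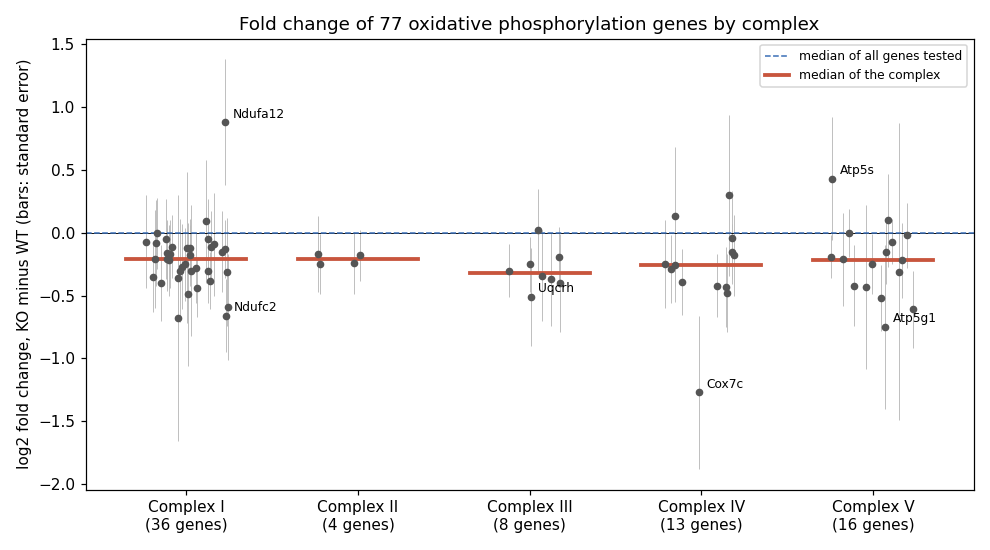
Difference between KO and WT (log2, edgeR) of the 77 members by complex, with standard errors as bars, the median of each complex as a red line and the median of all genes tested as a dashed line near 0. The complex medians lie between -0.32 and -0.21, with Cox7c at -1.27 and Ndufa12 at 0.88 as the values farthest from 0.

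The shift was largest in a pair of libraries. WT replicate 3 was the highest library for 53 of 77 members, with a median deviation of 0.43 (log2) from the mean of the 6 libraries, and KO replicate 1 was the lowest for 51, at -0.37. The medians of the other 4 libraries were between -0.094 and 0.10. Without WT replicate 3 the median difference of the members was -0.09 and 55 of 77 had a lower estimate. Without KO replicate 1 it was -0.12, and without any other single library it was between -0.34 and -0.24. Leaving out replicate 3 of both groups, an alternative chosen after the data were seen, gave -0.18 with 70 lower estimates.

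Short genes of the whole table deviated in the same libraries. The 463 genes under 1 kb had a median of 0.427 in WT replicate 3 and -0.348 in KO replicate 1, and the 7768 genes over 4 kb had -0.0471 and 0.108. The lengths used here are those behind FPKM, which can be far from that of the transcript. On that scale the members had a median of 2409 bases, compared with 5189 for all genes tested, and 14 were under 1 kb. The 45 members of at least 2 kb also deviated, by 0.38 and -0.34 in these libraries, compared with 0.53 and -0.54 for the members under 1 kb. That class held members with short transcripts. Cox6c and Atp5j were at 4956 and 5296 bases, and their longest coding transcripts in GENCODE have 738 and 809. The classes therefore do not show how members with long transcripts deviated. With each library corrected for gene length on the same scale, the median difference of the members was -0.18 and 65 had a lower estimate. The muscle marker sum was also highest in WT replicate 3, at 408 CPM. The granulocyte and monocyte sum was lowest in WT replicate 1 and highest in KO replicate 3, and the megakaryocyte sum was lowest in WT replicate 2 and highest in KO replicate 1. In KO replicate 3 alone the granule genes Mpo, Elane and Ctsg had 867, 115 and 83 reads. They had at most 23, 10 and 7 reads in any other library. The paper reports more Itgam in single KO HSCs. It also reports a larger proportion of KO HSCs high in CD41, which is encoded by Itga2b of the megakaryocyte list. These sums therefore cannot tell RNA from other cells apart from HSCs that express such genes. The part of library composition or of RNA from other cells in the members' shift was not tested.

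**Figure D3:**
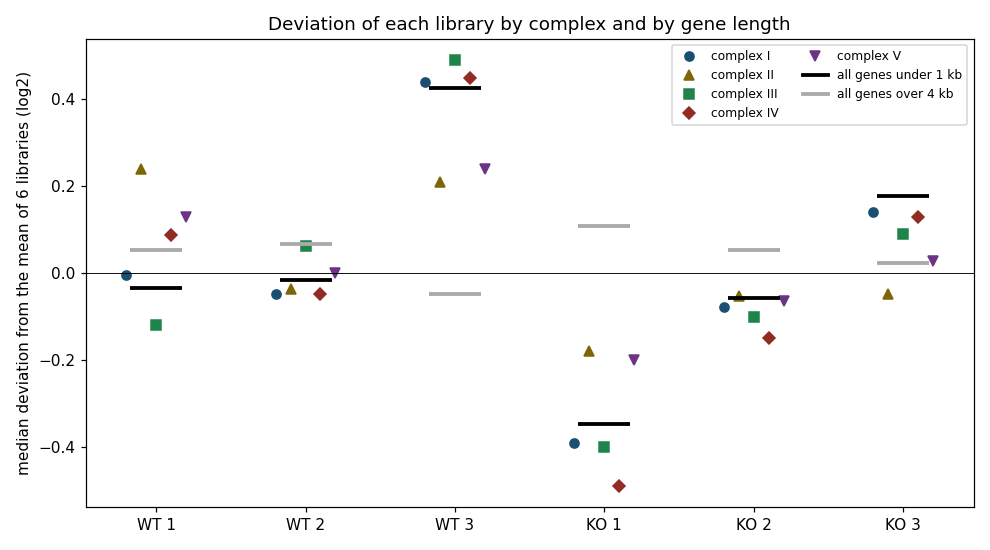
Median deviation (log2) of each library from the mean of the 6 libraries, for the members of each complex (symbols) and for all genes under 1 kb (black bars) and over 4 kb (grey bars). All 5 complexes are above 0 in WT replicate 3 and below 0 in KO replicate 1, where short genes are at 0.427 and -0.348. Gene lengths are those behind FPKM.

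Complex I, which oxidizes NADH, contained both the member with the smallest p and the only member that was higher in every KO sample. Ndufc2, an accessory subunit of the membrane arm (chromosome 7, 97400003 to 97407802, plus strand), was at 97.0, 102 and 113 normalized CPM in WT and 54.3, 52.6 and 90.7 in KO. KO replicate 3 was close to WT replicate 1, and the other 2 KO samples were well below all WT samples. The difference was -0.66 ± 0.29 (log2, SE), with an unadjusted p of 0.044 and an adjusted p of 0.86 in edgeR. Ndufc1, its neighbour in the membrane arm, was at 28.9, 25.7 and 39.6 CPM in WT and 15.8, 17.8 and 28.9 in KO, with an estimate of -0.59 ± 0.42 and overlapping groups. Ndufa12, an accessory subunit of the arm that oxidizes NADH (chromosome 10, 94198720 to 94221443, plus strand), was at 6.97, 13.5 and 17.6 CPM in WT and 18.6, 24.8 and 26.5 in KO. Its groups did not overlap, although KO replicate 1 and WT replicate 3 were 1 CPM apart, and the estimate of 0.88 ± 0.50 had an adjusted p of 0.95. A pseudogene transcript at least 98% identical to 36.2% of the Ndufa12 transcript exists in the annotation and was not in the table, so reads from it could be counted on the gene.

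The 7 members of the complex I core, which carry the flavin and the iron-sulfur clusters, had a median of -0.28, and the 29 accessory members had -0.21. Ndufs8, a core subunit that holds iron-sulfur clusters, was at 126, 132 and 163 CPM in WT and 90.8, 116 and 104 in KO, below WT in every sample with an estimate of -0.44 ± 0.23. Ndufs1, the largest core subunit, behaved differently from most members: it was lowest in WT replicate 3, at 24.4 CPM, followed by KO replicate 3 at 52.0, and the other libraries lay between 81.2 and 112 CPM. Its estimate of 0.09 changed to -0.33 without WT replicate 3. Ndufs1 overlaps Eef1b2 on the opposite strand, and the use of strand in counting is not given in the sources used here. The members of complex I with the highest levels per length, Ndufb9 and Ndufa6, were at 213 ± 40.4 and 152 ± 54.0 FPKM in WT and 185 ± 53.1 and 150 ± 47.6 FPKM in KO (SD, n = 3).

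Complex II has 4 subunits, all nuclear, and all 4 had a lower estimate in KO with overlapping groups. Sdha, the flavoprotein that oxidizes succinate, was at 547, 425 and 244 CPM in WT and 427, 393 and 258 in KO, so replicate 3 was lowest in both groups and the estimate was -0.17 ± 0.30. Sdhb, the iron-sulfur subunit, was at 205 ± 19.3 CPM in WT and 181 ± 22.9 in KO (SD, n = 3). The membrane anchors Sdhc and Sdhd had estimates of -0.24 ± 0.25 and -0.25 ± 0.24.

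Complex III had the lowest median of the complexes, and 7 of its 8 members had a lower estimate. As a share of the library, its reads were at 0.0919, 0.0946 and 0.1% in WT and 0.0682, 0.0902 and 0.0881% in KO. It was the only complex whose share of the column total was lower in every KO sample, although WT replicate 1 and KO replicate 2 nearly met. This depended on the denominator. On the library sizes behind normalized CPM, WT replicate 1 was below KO replicate 3, and the groups overlapped. Uqcrfs1, the Rieske iron-sulfur protein, varied little within groups, at 118, 117 and 125 CPM in WT and 95.8, 103 and 105 in KO, and its estimate of -0.25 ± 0.22 did not pass. Uqcrc1, a core protein, was at 431, 461 and 425 CPM in WT and 277, 420 and 372 in KO, where KO replicate 2 was just below the WT samples. The hinge protein Uqcrh and the small subunit Uqcr11 had estimates of -0.51 ± 0.39 and -0.40 ± 0.39 with overlapping groups, and both were highest in WT replicate 3. Uqcrb, which binds ubiquinone, was nearest to 0 with 0.02 ± 0.33, and Uqcrc2 was at -0.19 ± 0.24.

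The largest difference among the members was that of Cox7c, a small membrane subunit of complex IV (chromosome 13, 86044816 to 86046904, minus strand). It was at 19.5, 12.4 and 25.3 CPM in WT and at 3.44, 9.10 and 11.1 in KO. All KO samples were below all WT samples, with KO replicate 3 and WT replicate 2 close together. The estimate was -1.27 ± 0.61 (log2, SE), with p of 0.064 and an adjusted p of 0.91 in edgeR, and an unadjusted p of 0.042 and an adjusted p of 0.59 in DESeq2. The exact permutation test of 3 against 3 samples gave 0.1, the smallest p it can give. Leaving out 1 sample at a time gave estimates between -1.59 and -0.91. Only 400 reads in all were counted on Cox7c, and 2 pseudogene transcripts at least 98% identical to parts of it cover 16.8% of its transcript, of which 1 was in the table with 184 reads. The level of Cox7c was therefore uncertain.

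The abundant members of complex IV gave smaller estimates. Cox8a was at 145, 132 and 200 CPM in WT and 94.4, 120 and 149 in KO, with an estimate of -0.39 ± 0.26, and the groups overlapped through KO replicate 3. Cox6b1 was at 98.6, 85.2 and 150 CPM in WT and 55.5, 87.4 and 95.9 in KO, with an estimate of -0.48 ± 0.31. Both were highest in WT replicate 3 and lowest in KO replicate 1. Among alternative isoforms, Cox4i2, the form that is known to be induced by low oxygen, made up 12.7, 10.4 and 2.26% of the Cox4i FPKM in WT and 12.2, 15.3 and 7.99% in KO. Its share was lowest in replicate 3 of both groups, and Cox4i1 supplied the rest. Cox6b2, known from testis, took 2.1 ± 0.253% of the Cox6b FPKM in WT and 3.24 ± 1.5% in KO (SD, n = 3). The estimates were 0.30 ± 0.64 for Cox4i2 and 0.13 ± 0.55 for Cox6b2, and that of Cox4i2 was -0.08 without WT replicate 3. The general isoforms Cox4i1, Cox6a1, Cox7b and Cox7a2 had estimates of -0.29, -0.26, -0.18 and -0.04. Ndufa4, named as a complex I gene but now known as a subunit of complex IV, had -0.36 ± 0.30.

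In complex V the c subunit, which forms the proton-driven ring, is encoded by 3 genes for the same mature protein. Their FPKM shares depend on the gene lengths used, which were 9797 bases for Atp5g1 and 2931 for Atp5g3. On that scale Atp5g3 took most of their FPKM, with 82.6, 83.9 and 93.3% in WT and 92.4, 79.5 and 86.1% in KO. It was at 74.8, 66.7 and 98.6 CPM in WT and 61.8, 36.6 and 58.5 in KO, all KO samples below all WT samples, with an estimate of -0.61 ± 0.31 and an adjusted p of 0.93 in edgeR. Atp5g1 was spread over a wide range within each group, at 39.4, 26.2 and 9.27 CPM in WT and 16, 5.46 and 23.1 in KO, and its estimate was -0.75 ± 0.65. Atp5g2 had 1 read in KO replicate 1 and 31 in KO replicate 2, which moved its share of the 3 genes from 0.420 to 17.0% within a genotype.

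**Figure D4:**
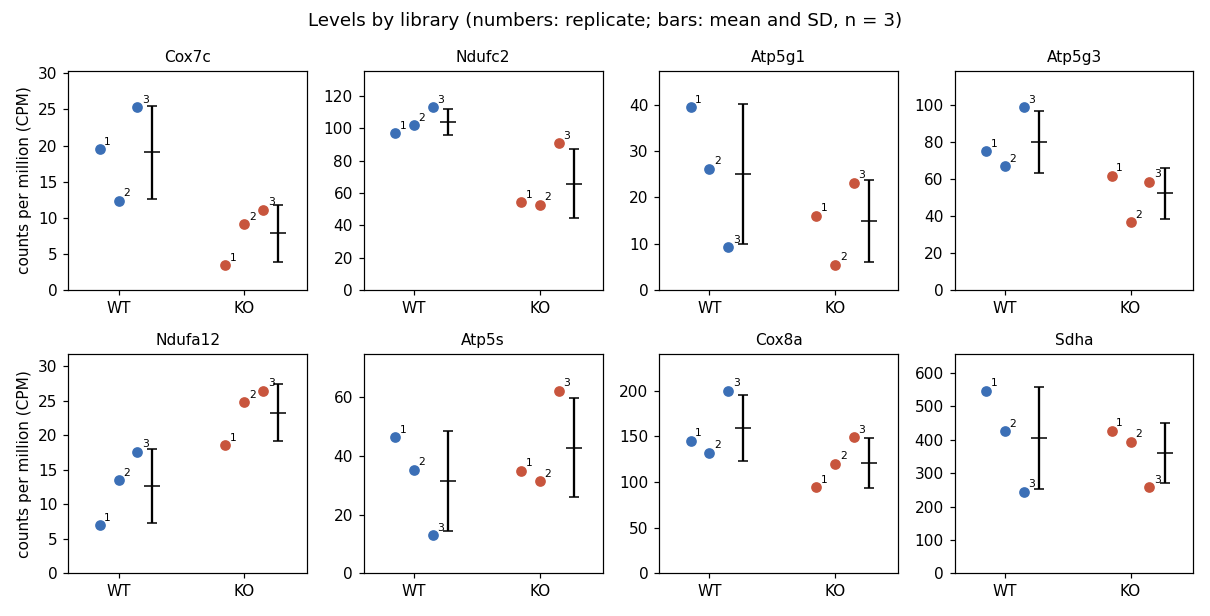
Normalized CPM of 8 members in each library (numbers give the replicate), with the mean and SD of each group (n = 3) as black bars. Cox7c, Ndufc2 and Atp5g3 are lower and Ndufa12 is higher in all 3 KO samples, and the groups overlap for Atp5g1, Atp5s, Cox8a and Sdha.

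The 5 members of the F1 part of ATP synthase, where ATP is formed, had a median of -0.19, and the 11 other complex V members had -0.25. Atp5a1 was at 881, 800 and 868 CPM in WT and 704, 792 and 736 in KO, all KO samples below all WT samples by a small margin, with an estimate of -0.19 ± 0.17. Atp5b was at 1160, 660 and 650 CPM in WT and 936, 668 and 625 in KO, so that replicate 1 stood out in both groups, and the estimate was -0.15 ± 0.26. Atp5o, part of the stalk that holds the head in place, was at 99.6, 108 and 156 CPM in WT and 70.9, 93.5 and 89.0 in KO, with -0.52 ± 0.26. Atp5s, a factor of the coupling apparatus, was at 46.3, 35.1 and 13 CPM in WT and 34.8, 31.3 and 62.1 in KO. Its estimate of 0.43 ± 0.49 changed to 0.07 without WT replicate 3. The symbol Atp5sl, which was picked up by name and belongs to a related protein of complex I assembly, had 0.10 ± 0.37.

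Reads of members can be shared with other genes. Of the 77 members, 30 overlap another annotated gene, and 11 have a pseudogene transcript at least 98% identical over 100 bases or more. For 3 of these, Ndufs3, Atp5h and Uqcrb, such copies covered 75.7, 71.1 and 62.8% of the transcript. The copy of Atp5h was in the table with 2783 reads, more than the 1135 of Atp5h itself. The copy of Ndufs5 had 492 reads against 699 for the gene. The levels of these genes are uncertain, as reads that fit both places could have been given to either or dropped.

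The subunits encoded in mitochondrial DNA complete the same complexes, and several of them had many reads in some libraries and none in others. Cytochrome b (mt-Cytb) and the complex I subunits mt-Nd1, mt-Nd2, mt-Nd5 and mt-Nd6 had reads in every library, with estimates between -0.30 and 0.10 and overlapping groups. mt-Co2, the copper-bearing subunit of complex IV, had 209, 495 and 367 reads in WT and 0 in each KO sample, and was the only gene of the set that passed in edgeR's quasi-likelihood test (adjusted p of 0.0043). A floor of 3 counts in each KO library averaged 0.587 CPM, and the WT mean of 72.4 CPM was 123-fold above that mean floor. mt-Co3, another complex IV subunit, had 0 reads in each WT sample and 422, 1 and 1245 in KO. It was removed by the filter on low counts in edgeR and passed in DESeq2, with an adjusted p of 0.026. Zeros also occurred within a genotype. mt-Atp6 had 2847, 0 and 4518 reads in WT and 0, 18 and 0 in KO, mt-Co1 had 0 reads in KO replicate 2 and at least 6704 elsewhere, and mt-Nd4 had 82 reads in WT replicate 2 and at least 2931 elsewhere. In that same library mt-Nd4l, which overlaps mt-Nd4, had 385 reads, compared with at most 5 in the others. Mitochondrial genes are cut from shared transcripts and every respiring cell uses these core subunits, so that a 0 is given here only as no counted read in that library. Mitochondrially encoded genes took between 0.199 and 0.734% of each library, with the highest share in WT replicate 3.

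**Figure D5:**
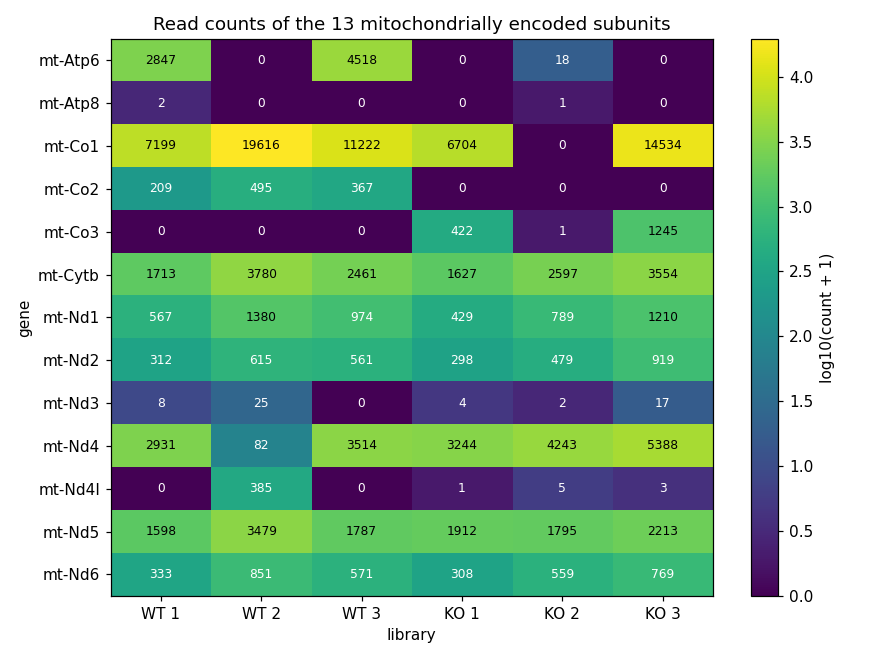
Read counts of the 13 mitochondrially encoded subunits in each library, with colour giving log10(count + 1) and the count printed in each cell. mt-Co2 is at 0 in all KO libraries and mt-Co3 in all WT libraries, while mt-Atp6, mt-Co1, mt-Nd4 and mt-Nd4l change between libraries of the same genotype.

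Other genes of respiration were described by lists. The 6 cytochromes and subunits whose symbols fall outside the naming rule all had lower estimates in KO and overlapping groups, with a median of -0.46. Among them were Cyc1, the cytochrome c1 of complex III, with -0.29 ± 0.23, and Ndufab1, the acyl carrier protein, with -0.60 ± 0.50. Of 51 assembly factors, which insert cofactors and join subunits, 50 were in the table and 49 were tested, 0 passed in either direction, 27 had a lower estimate and the median was -0.11. Among those with a mean of at least 50 reads over the libraries, the estimates farthest from 0 in each direction were -0.92 ± 0.53 for Ndufaf6, a complex I factor, and 0.65 ± 0.51 for Cox11, which delivers copper to complex IV.

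Of 21 regulators of mitochondrial biogenesis 0 passed, with 13 lower estimates and a median of -0.15. Esrra, the receptor whose motif is marked in the Atp5g3 stretch, had 94, 115 and 42 reads in WT and 1, 75 and 24 in KO, and the estimate of -1.30 ± 0.98 had an adjusted p of 0.99 in edgeR. Tfb1m, a methyltransferase of mitochondrial ribosomal RNA, was higher in every KO sample with 0.85 ± 0.47 and an adjusted p of 0.94. Gabpb2, a partner of GABPA, was lower in every KO sample with -0.98 ± 0.42 and the only unadjusted p under 0.05 of the list (0.040, adjusted p of 0.83 in edgeR), and was named after its values were seen. Of 17 genes of pyruvate dehydrogenase and the TCA cycle, which supply the electrons, 0 passed and the median was -0.013, from -0.33 ± 0.28 for Fh1, the fumarase, to 0.61 ± 0.39 for Pdhx, which anchors a subunit in the pyruvate dehydrogenase core. The 6 carriers of ADP, ATP and phosphate and porins that were tested had a median of -0.038, from -0.34 ± 0.26 for the porin Vdac1 to 0.15 ± 0.24 for the ADP/ATP carrier Slc25a4. Ucp2, the uncoupling protein homologue found in blood cells, had 0.16 ± 0.23. Whether the median of the subunits differs from those of these lists was not tested.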

How the data were processed

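For 6 libraries the authors deposited 2 tables, raw read counts and FPKM. The deposited FPKM equalled the count divided by a gene length and the column total, within 0.0703%. The submitters' processing notes name TopHat, HTSeq and mm10. The annotation and strand setting are not given in the sources used here. The paper's methods name a TruSeq kit and the labels a SMART-Seq v4 amplification. Members and lists were chosen with earlier results of these data known. The fit used edgeR 4.0.16 under R 4.3.3 (filterByExpr, TMM, quasi-likelihood test, Benjamini-Hochberg adjustment over all genes). Normalized CPM uses TMM sizes. Alternatives used DESeq2 1.42.0 and limma 3.58.1. The fits were tested on simulated data. Of the identifiers, 34344 were found in GENCODE M21 (GRCm38), the source of gene coordinates and overlaps. Pseudogene transcripts were searched with BLAST+ 2.17.0, and promoters came from RefSeq (GRCm38.p6). The genes named were, per complex, the 2 largest and 2 smallest estimates with a mean of at least 50 counts per library and the 2 highest FPKM, alternative isoforms, genes at the count limit, and per list the genes past the threshold and the largest estimate in each direction. Other members with groups that do not overlap, and genes named for shared reads or as other mitochondrial subunits, were chosen after their values were seen. Floors cover counting error only.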

Additional observations from a re-analysis of the deposited data

How the results depend on the processing

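In each alternative 0 members passed an adjusted p of 0.05. The number of members at an unadjusted p under 0.05, which was 1, became 2 with DESeq2, with at least 10 counts in every sample, with limma on log2(FPKM + 0.1), and without replicate 3 of both groups (chosen after seeing the data), 3 with limma on log2(FPKM + 1) and 4 with that test without a filter. With each sample left out it was between 0 and 2. The share of all genes at that p was counted only for edgeR and DESeq2 on all samples, so the other counts have no background beside them. Over all genes, 9 passed in edgeR, compared with 149 in DESeq2, 28 and 15 with limma on log2(FPKM + 0.1) and log2(FPKM + 1), and 0 with voom. With each sample left out it was between 5 and 11, with 5 without WT replicate 1. The cause was not tested.

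The replicate number as a block gave 5 genes, 2 members at an unadjusted p under 0.05 and a median of -0.23 for the members. The labels do not say whether equal numbers pair the samples. Deviations from the group means correlated at 0.163, 0.0315 and 0.162 for same-numbered samples across 12513 genes. For samples with different numbers the correlations were between -0.165 and 0.0323. Whether equal numbers mark paired samples was not tested.

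With each sample left out, the median was between -0.34 and -0.09 for the members, -0.33 and -0.035 for complex I, -0.28 and -0.14 for II, -0.39 and -0.14 for III, -0.51 and -0.082 for IV, and -0.29 and -0.099 for V. The KO-minus-WT difference in the summed share of the members was between -0.134 and -0.0665 percentage points, and between -0.15 and -0.098 with other denominators. Of 33 members named for their estimate, level or isoform, 19 had the same sign in every alternative run for them, which were 18 except for Atp5g2, with 17. Other members named in the text were not counted. Depth limits members with few reads, such as Ndufb4 with 85 and Atp5g2 with 94 over all libraries.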
